A study of Mus musculus with 36 samples.

Results

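The genes described here encode the proteins named Mrpl and Mrps, after the large and the small subunit of the mitochondrial ribosome. They were taken by a rule on names, set with earlier results of these data known. It took every gene of the count table whose symbol is Mrpl or Mrps followed by digits. That gave 73 of 38283 genes, 47 named Mrpl and 26 named Mrps. All 73 passed the filter on low counts that left 13945 genes for testing. Livers came from 36 mice of strain C57Bl/6J aged 16 weeks, with 3 feeding states of 12 mice, of which 6 were wild-type and 6 carried WT/Y657*. WT/Y657* mice were heterozygous for a nonsense mutation placed in the Pik3r1 gene by homologous recombination, which truncates the p85α regulatory subunit of phosphoinositide 3-kinase, an enzyme that carries the insulin signal. Fed mice had chow ad libitum, fasted mice had been without food for 16 h, and refed mice had been fasted for 16 h and then given chow for 6 h. Tissues were taken before the overnight fast, after it or after refeeding, so feeding state and time of day cannot be told apart. The comparisons ask how these genes responded to fasting and to refeeding, and whether the mutation changed their level in any state or their response.

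The mitochondrial ribosome translates the few messages that mitochondrial DNA encodes, all of them for membrane subunits of the respiratory chain and ATP synthase. Its ribosomal RNAs come from mitochondrial DNA, whereas all of its proteins are encoded in the nucleus, made in the cytosol and imported. Some of those proteins have a counterpart in the bacterial ribosome and others were added in the mitochondrial lineage, and liver, which is rich in mitochondria, needs them for oxidative metabolism.

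Estimated read counts per mouse summed to between 8839488 and 19542775, with a median of 13596665.5, and biological variation between mice of a group had a common coefficient of 0.181. The 10 hepatocyte markers summed to CPM (counts relative to library size) of 57715 to 111050 in the 36 mice, and the 7 Kupffer cell markers to 219 to 778.5. Pik3r1 itself, whose message the mutation need not lower, was not called between genotypes in any state (log2 difference 0.04 fed, 0.05 fasted and 0.23 refed). The 16S ribosomal RNA of mitochondria, mt-Rnr2, was listed at 0 in 5 mice (2 fasted WT/Y657*, 1 refed wild-type and 2 refed WT/Y657*) and at 36050 CPM or more in the others. Counts of members called are therefore also given without those 5 mice where they differ. For the other gene lists such counts are not given. Fasted and refed mice of each genotype carried mouse numbers from a lower and a higher series, 3 mice from each, and fed mice carried numbers from neither. Feeding state and number series therefore cannot be told apart in any comparison with fed mice. The numbers of fed mice fell in series a, b and c, with wild-type mice 4 in a and 2 in b, and WT/Y657* mice 3 in b and 3 in c. Genotype and number series thus partly coincide in fed mice and in the genotype difference of the fasting response. Each library came from 1 mouse, mice are named by the labels' titles (ALC fed, ONF fasted, RF6 refed, MT WT/Y657*), and p-values measure the spread between mice. These are whole-liver libraries, in which fewer cells of a type and less RNA per cell cannot be told apart.

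Every member was detected in every mouse, at levels that ranged widely between genes. Mean CPM over the 36 mice, after TMM scaling (a trimmed mean of log ratios sets the library factors), ranged from 1.40 to 66.0 with a median of 24.6, against a median of 12.9 over all genes tested. Together they made up 0.192% of all counts. Per length, as CPM per kilobase of merged exons, the median of the 72 members with a known length was 10.5, against 2.93 for all genes tested, and their exons were shorter, with a median of 2213.5 against 4268 bases. The highest level per length was that of Mrpl12 at 43.1 CPM per kilobase, which forms the flexible stalk that recruits translation factors, followed by Mrpl34 at 39.3 and Mrpl53 at 33.2. The lowest were Mrps35 at 2.61, Mrps36 at 1.098 and Mrpl23 at 1.07. Mrps36 is named as a ribosomal protein but is now known as a subunit of the α-ketoglutarate dehydrogenase complex, and at 1.40 CPM it was by far the least counted member. By class, the median level per length was 11.2 for 29 large-subunit proteins with a bacterial counterpart, 13.4 for 19 large-subunit proteins specific to mitochondria (Mrps30, which sits in the large subunit, among them), 7.60 for 15 small-subunit proteins with a counterpart and 6.17 for 9 small-subunit proteins without one.

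Most of these genes were higher in refed than in fasted mice of both genotypes. In wild-type mice 51 of the 73 (69.9%) were higher 6 h after food was returned than at the end of the fast and 1 was lower, where 16.5% of all genes tested were called higher and 13.7% lower at a Benjamini-Hochberg adjusted p under 0.05 (edgeR's quasi-likelihood test, used for every adjusted p below). The median log2 fold change of the members was 0.33, against 0.0018 for all genes tested, and 72 of the 73 point estimates were above 0. In WT/Y657* mice 42 (57.5%) were higher and 1 lower, beside 17.1% and 14.2% of all genes tested, with a median of 0.24 against -0.0080 and 65 estimates above 0. The 2 responses share no mice, and 35 members rose in both, which is 68.6% of those that rose in wild-type and 83.3% of those that rose in WT/Y657* mice. The overlap over all genes tested was not counted, so whether these shares are particular to the members cannot be told. To give every mouse a single value, the 73 members' log2 CPM, each less its average over the 36 mice, were averaged. This member score ran from 0.0984 to 0.274 in the 12 refed mice and from -0.240 to 0.0504 in the 24 fed and fasted mice, so that every refed mouse lay above every other mouse. Mean scores were 0.171 ± 0.0436 (SD, n = 6) in refed wild-type and 0.205 ± 0.0642 in refed WT/Y657* mice, against -0.157 ± 0.0502 and -0.0441 ± 0.0489 after the fast.

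**Figure D1:**
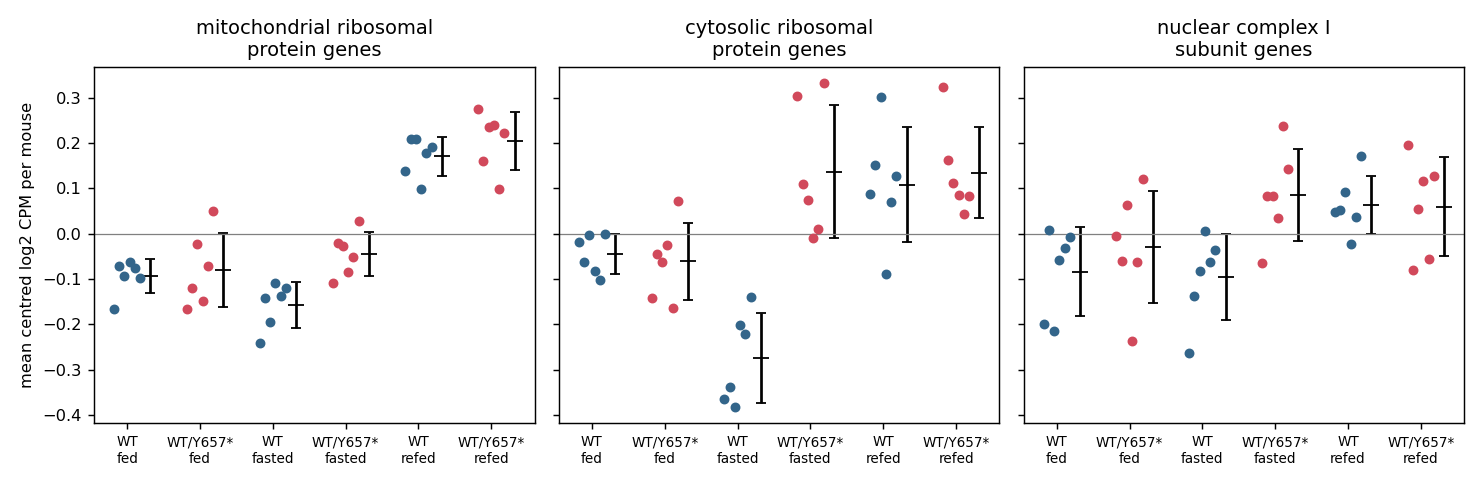
Mean centred log2 CPM of 3 gene groups in each mouse (1 point per mouse, 6 per group, with the mean and SD as black bars; wild-type (WT) blue, WT/Y657* red). The mitochondrial ribosomal protein genes lie at 0.0984 or higher in all 12 refed mice and at 0.0504 or lower in the others, whereas the cytosolic ribosomal protein genes have their lowest mean in fasted wild-type mice (-0.274).

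Both subunits took part. Of 29 large-subunit members with a bacterial counterpart 21 rose with wild-type genotype and 15 with WT/Y657* on refeeding, of 19 specific to mitochondria 13 and 13, of 15 small-subunit members with a counterpart 13 and 10, and of 9 without one 4 and 4. The class medians lay between 0.21 and 0.35 in wild-type mice. None of these shares was tested against another.

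**Figure D2:**
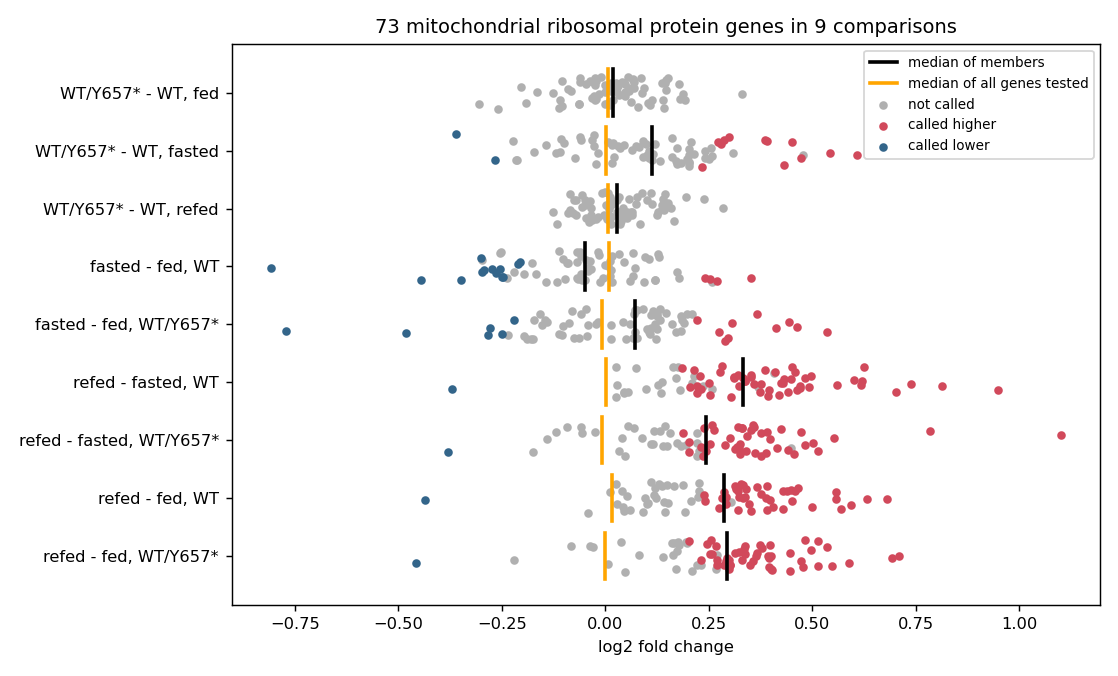
Log2 fold change of each of the 73 members (points, spread vertically for legibility) in 9 comparisons of 2 groups, red where called higher and blue where called lower at an adjusted p under 0.05, with the median of the members (black) and of all genes tested (orange). The cloud shifts to the right in the 4 comparisons of refed with fasted or fed mice and straddles 0 in the others.

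Mrps27, a small-subunit protein of the pentatricopeptide repeat family of RNA-binding proteins (ENSMUSG00000041632, chr13:99344786-99415562, plus strand, in the GRCm38 build), moved most. Its lowest, median and highest CPM were 20.7, 22.3 and 25.1 in fed wild-type mice, 10.6, 13.1 and 14.5 after the fast and 21.9, 25.1 and 29.2 after refeeding. In WT/Y657* mice they were 16.2, 19.1 and 20.9 fed, 8.98, 10.6 and 14.9 fasted and 18.3, 22.3 and 31.5 refed. No fasted mouse of either genotype reached the lowest fed or refed mouse of its genotype. The log2 change on refeeding was 0.95 (SE 0.11, adjusted p = 1.86e-08) in wild-type and 1.101 (SE 0.11, adjusted p = 8.48e-10) in WT/Y657* mice, and that on fasting -0.81 (SE 0.11, adjusted p = 2.78e-07) and -0.77 (SE 0.11, adjusted p = 9.13e-07). Of its exon bases, 24.2% lie under a gene on the opposite strand, 6430562O15Rik, and whether the counting used strand is not stated.

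Mrps22, also of the small subunit and specific to mitochondria (ENSMUSG00000032459, chr9:98588730-98601660, minus strand), followed the same course on a smaller scale. Its lowest, median and highest CPM in wild-type mice were 21.8, 23.9 and 28.4 fed, 16.1, 17.8 and 20.7 fasted and 26.96, 29.8 and 34.8 refed, and the fasted group overlapped neither of the others. Among WT/Y657* mice the values were 18.4, 23.6 and 24.5, 16.6, 18.98 and 22.2 and 30.6, 32.9 and 36.01, and the refed group stood apart from both. Refeeding changed it by 0.74 (SE 0.08, adjusted p = 8.95e-09) and 0.79 (SE 0.08, adjusted p = 1.71e-09) on the log2 scale in the 2 genotypes, and fasting by -0.44 (SE 0.08, adjusted p = 5.24e-05) and -0.25 (SE 0.08, adjusted p = 0.0163).

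Mrps25, another small-subunit protein without a bacterial counterpart (ENSMUSG00000014551, chr6:92169525-92184033, minus strand), was the 1 member that fell on refeeding, and it did so in both genotypes. Wild-type mice had 27.6, 31.6 and 34.7 CPM fed, 28.1, 30.3 and 31.1 fasted and 18.6, 22.2 and 30.2 refed (lowest, median, highest), with 1 refed mouse inside the fasted range. WT/Y657* mice had 29.5, 30.8 and 34.2, 27.4, 28.9 and 32.5 and 21.4, 22.5 and 23.9, and there the refed group lay below both others. The log2 change on refeeding was -0.37 (SE 0.08, adjusted p = 4.18e-04) in wild-type and -0.38 (SE 0.08, adjusted p = 2.90e-04) in WT/Y657* mice. Of the exon bases of Mrps25, 69.8% overlap the gene Nr2c2, a nuclear receptor on the opposite strand, which itself fell by 0.62 (adjusted p = 7.43e-08) in wild-type and by 0.88 (adjusted p = 4.15e-11) in WT/Y657* mice on the log2 scale. The part of the overlap in the values of Mrps25 was not tested.

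**Figure D3:**
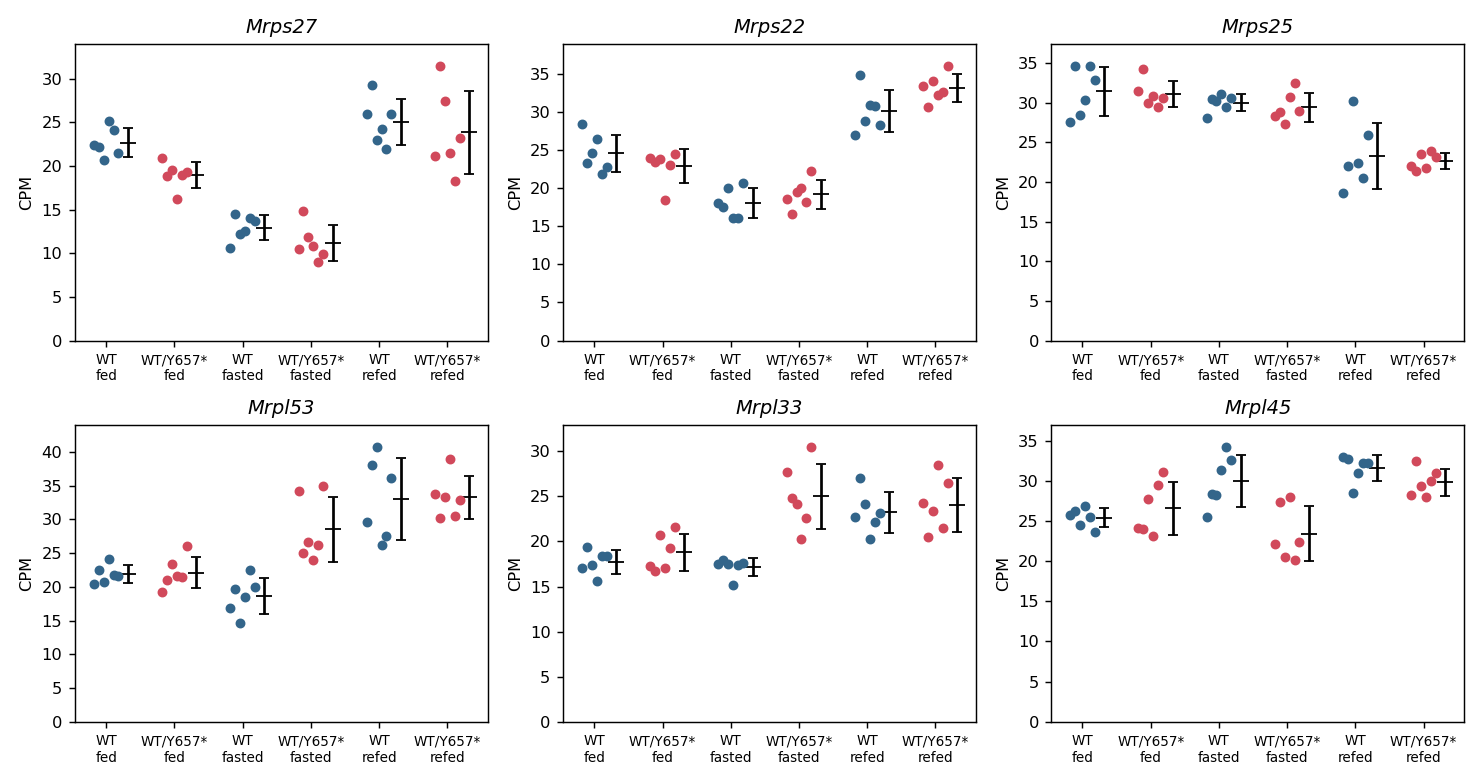
CPM of 6 members in each mouse (points, 6 per group, with mean and SD as black bars; wild-type (WT) blue, WT/Y657* red; axes start at 0). Mrps27 and Mrps22 are lowest in the fasted groups, Mrps25 is lowest in the refed groups, and Mrpl53 and Mrpl33 differ between genotypes in fasted mice alone by the test, with Mrpl45 lower in fasted WT/Y657* mice.

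The stalk brings the translation factors to the ribosome. Mrpl12 (ENSMUSG00000039640, chr11:120484613-120489065, plus strand) rose from 54.02, 62.3 and 64.8 CPM (lowest, median, highest) in fasted to 72.5, 80.7 and 85.3 in refed wild-type mice without overlap, a log2 change of 0.38 (SE 0.08, adjusted p = 2.52e-04), and by 0.30 (adjusted p = 0.00263) in WT/Y657* mice, whose refed values spread from 64.3 to 98.6. Mrpl11, at the base of the stalk, rose by 0.36 (adjusted p = 4.80e-04) and 0.20 (adjusted p = 0.0446). Mrpl10, which tethers Mrpl12 to the ribosome, had changes of 0.05 (adjusted p = 0.678) and 0.11 (adjusted p = 0.250), neither past the threshold, and the stalk genes were not tested against each other. Of the proteins at the core of the peptidyl transferase region, Mrpl2 rose by 0.25 (adjusted p = 0.00501) and 0.31 (adjusted p = 5.73e-04), whereas Mrpl3 had changes of 0.05 in both genotypes (adjusted p = 0.711 and 0.641). The rise of Mrpl2 in wild-type mice was not called once trends with gene length and GC content were removed (0.15, adjusted p = 0.117).

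Among the small-subunit members fixed by role, Mrps12, which lines the decoding site, rose by 0.39 (adjusted p = 6.63e-04) and 0.51 (adjusted p = 1.75e-05), and Mrps5, at the channel where the message enters, by 0.31 (adjusted p = 0.00244) and 0.47 (adjusted p = 1.39e-05). Mrpl36, a zinc-binding protein of the large subunit, rose by 0.43 (adjusted p = 8.46e-04) and 0.26 (adjusted p = 0.0383), and Mrps30 by 0.34 (adjusted p = 0.00100) and 0.24 (adjusted p = 0.0183). Mrpl44, which is related to ribonuclease III, had 0.10 (adjusted p = 0.381) in wild-type and rose by 0.34 (adjusted p = 0.00112) in WT/Y657* mice. Mrpl41, a large-subunit protein without a bacterial counterpart, rose by 0.41 (adjusted p = 0.00213) in wild-type mice and had 0.16 (adjusted p = 0.245) in WT/Y657* mice. Mrps36 was not called in either genotype (0.41, SE 0.26, and 0.45, SE 0.26). Among the largest rises were also those of Mrpl53 by 0.81 (adjusted p = 2.84e-07) in wild-type mice, where WT/Y657* mice had 0.22 (adjusted p = 0.111), and of Mrpl16. Mrpl16, a large-subunit protein with a bacterial counterpart, went up by 0.55 in WT/Y657* mice (adjusted p = 1.25e-05) and by 0.37 in wild-type mice (adjusted p = 0.00169).

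Fasting by itself moved fewer members, and in both directions. In wild-type mice 13 (17.8%) were lower and 4 (5.48%) higher after 16 h without food, where 17.5% of all genes tested were called lower and 14.5% higher. The share that fell was thus close to that of all genes and is no result about the members, and their median was -0.05 against 0.010 for all genes tested. After Mrps27 and Mrps22 the largest fall was that of Mrps28 by 0.35 (adjusted p = 0.0193), a call that was not made without fed mouse ALC_WT_848 (adjusted p = 0.077), fed mouse ALC_WT_856 (0.0581) or fasted mouse ONF_WT_807 (0.0548). Mrpl17, a large-subunit protein with a bacterial counterpart (ENSMUSG00000030879, chr7:105803206-105811099, minus strand), rose instead, from 29.4, 31.2 and 35.2 CPM (lowest, median, highest) in fed to 38.2, 40.5 and 41.96 in fasted wild-type mice without overlap, by 0.35 (SE 0.07, adjusted p = 1.90e-04). Mrpl9 rose by 0.27 (adjusted p = 0.00319) and Mrps26 by 0.25 (adjusted p = 0.0204), the latter not called without fasted mouse ONF_WT_824 (adjusted p = 0.0815), fasted mouse ONF_WT_920 (0.0534) or fed mouse ALC_WT_848 (0.0584).

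In WT/Y657* mice 6 (8.22%) were lower and 10 (13.7%) higher after the fast, beside 17.7% and 15.2% of all genes tested, with a median of 0.07. Without the 5 mice at 0 for mt-Rnr2 there were 3 lower and 7 higher, given without the share of all genes called. Mrpl17 rose most again, from 27.4, 32.5 and 35.1 to 37.9, 47.5 and 51.1 CPM without overlap, by 0.54 (SE 0.07, adjusted p = 1.94e-07), followed by Mrpl20 with 0.46 (adjusted p = 6.17e-07) and Mrpl21 with 0.44 (adjusted p = 3.03e-04), both of the large subunit with bacterial counterparts. Beside Mrps27, the largest falls were those of Mrps15 by 0.48 (adjusted p = 2.19e-04) and Mrpl16 by 0.28 (adjusted p = 0.0160). The fall of Mrpl16 was not called without fasted mouse ONF_MT_806 (-0.19, adjusted p = 0.0682). Mrps12, Mrps22 and Mrps27 fell in both genotypes and Mrpl17 rose in both.

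Most members also stood higher after refeeding than in fed mice. Of the 73, 41 (56.2%) were higher and 1 (Mrps25) lower in refed than in fed wild-type mice, where 13.2% and 14.3% of all genes tested were called, and 48 (65.8%) were higher and 1 (Mrps25) lower in WT/Y657* mice, beside 13% and 13.1%. Medians were 0.29 and 0.29, the former 0.17 with trends on gene length and GC content removed. In both genotypes 33 members were higher, again without a count of the overlap over all genes tested. These comparisons share the refed mice with those above, and fed and refed mice also differ in mouse-number series. Mrpl18, a large-subunit protein that binds 5S ribosomal RNA in bacteria, rose most in wild-type mice, from 25.9, 28.8 and 33.3 CPM (lowest, median, highest) fed to 45.7, 46.3 and 48.7 refed without overlap, by 0.68 (SE 0.08, adjusted p = 1.01e-07). Mrps34, a small-subunit protein specific to mitochondria, rose by 0.63 (adjusted p = 6.75e-08), from 22.6, 29.4 and 31.1 to 40.6, 43.6 and 45.9 CPM. Of its exon bases 63.4% overlap Mapk8ip3 on the opposite strand and 37.0% Nme3 on the same strand, and those genes changed by 0.63 (adjusted p = 4.23e-05) and 0.46 (adjusted p = 0.0287) in the same comparison, whose part in its value was not tested. In WT/Y657* mice the largest rises were those of Mrpl17 by 0.71 (adjusted p = 1.87e-09), Mrps6 by 0.69 (adjusted p = 9.63e-04) and Mrpl53 by 0.59 (adjusted p = 6.63e-05). Mrps27 was at 0.14 (adjusted p = 0.336) in refed against fed wild-type mice.

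Between genotypes, 14 of the 73 members were called after the fast and 59 were not. Of the 73, 12 (16.4%) were higher and 2 (2.74%) lower in WT/Y657* than in wild-type liver, where 6.43% and 6.63% of all genes tested were called. The median log2 difference was 0.11 against 0.0021 for all genes tested, and 54 of 73 estimates were above 0. The member score was -0.240, -0.140 and -0.109 (lowest, median, highest) in fasted wild-type and -0.110, -0.0390 and 0.0277 in fasted WT/Y657* mice, and 5 of the 6 WT/Y657* mice exceeded the highest wild-type mouse. Within the lower mouse-number series, at 3 mice a group, 52 estimates were above 0, with a median of 0.15 and 10 calls. Within the higher series, also at 3 mice a group, 52 were above 0, with a median of 0.10 and 2 calls. Of all genes, 1018 were called between genotypes in the lower series and 73 in the higher. The larger number of calls in the lower series was therefore not particular to the members. Among the mice with mt-Rnr2 above 0, 9 members were higher and 2 lower. With testing limited to genes with at least 10 counts in every library, 20 were higher and 2 lower. Both alternatives are given without the share of all genes called. The filter also changes which genes are tested, so neither count can be read against the main ones. In fed mice no member was called in either direction, beside 1.21% of all genes tested called higher and 1.15% lower (median 0.02, 5 members at an unadjusted p under 0.05), and no member was called by DESeq2. Refed mice gave no called member either, beside 0.0215% and 0.00717% (median 0.03, 3 members at an unadjusted p under 0.05, and none by DESeq2).

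Of the 12 members that were higher in fasted WT/Y657* mice, 11 encode large-subunit proteins, as do 48 of all 73, and the 2 shares were not tested against each other. Mrpl53, specific to mitochondria (ENSMUSG00000030037, chr6:83109040-83109939, plus strand), differed most, with 14.7, 19.1 and 22.4 CPM (lowest, median, highest) in fasted wild-type and 24.03, 26.4 and 34.9 in fasted WT/Y657* mice, which did not overlap, a log2 difference of 0.61 (SE 0.11, adjusted p = 2.52e-04). In the fed groups it was at 20.3, 21.7 and 24.1 and 19.2, 21.5 and 25.97, and in the refed groups at 26.2, 32.9 and 40.7 and 30.2, 33.1 and 38.99, with overlap in both states. A gene model on the same strand, Gm42688, covers 88.0% of its exon bases, so that reads from the shared bases cannot be told apart. Its highest values in fasted WT/Y657* mice, 34.2 and 34.9 CPM, were those of ONF_MT_806 and ONF_MT_923, beside 24.03 to 26.6 in the others. Genes of mitochondrial DNA made up 5.49% and 6.49% of counts in those mice, against 9.02% to 12.8% in the others. The difference without both mice is not given here. Mrpl33, the counterpart of a small bacterial protein (ENSMUSG00000029142), had 15.2, 17.5 and 17.97 CPM in wild-type and 20.3, 24.5 and 30.5 in WT/Y657* mice after the fast, again without overlap, a difference of 0.54 (SE 0.09, adjusted p = 1.23e-04). Its fed values were 15.7, 17.9 and 19.4 and 16.8, 18.3 and 21.6, and its refed values 20.2, 22.9 and 27.1 and 20.5, 23.8 and 28.5. Mice ONF_MT_806 and ONF_MT_923 again had the highest values of the fasted WT/Y657* mice, 27.7 and 30.5 CPM, beside 20.3 to 24.9 in the others. Mrps21, the 1 small-subunit gene among the 12 (ENSMUSG00000054312, chr3:95862634-95871519, minus strand), had 15.99, 18.3 and 20.5 and 21.4, 25.9 and 27.9 CPM in the fasted groups, which did not overlap, and differed by 0.47 (SE 0.09, adjusted p = 3.71e-04). Mrpl50, Mrpl20, Mrpl41, Mrpl21, Mrpl13, Mrpl14, Mrpl51, Mrpl18 and Mrpl30 made up the rest, from 0.45 (adjusted p = 9.24e-06) for Mrpl50 to 0.23 (adjusted p = 0.0286) for Mrpl30. Mrpl41 was not called without length and GC trends (0.27, adjusted p = 0.0698), nor without the mice at 0 for mt-Rnr2 (0.28, adjusted p = 0.165). By the counts of calls in those fits, others of the 12 lost their call too, and which ones is not given here. Mrpl14, Mrpl18, Mrpl20, Mrpl41 and Mrpl51 also had their highest values of the fasted WT/Y657* mice in ONF_MT_806 and ONF_MT_923. Mrps21, Mrpl50, Mrpl21, Mrpl13 and Mrpl30 did not.

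Mrpl45 and Mrps2 went the other way. Mrpl45, which lies by the exit of the peptide tunnel and anchors the ribosome to the inner membrane (ENSMUSG00000018882, chr11:97315716-97329920, plus strand), had 25.5, 29.8 and 34.2 CPM in fasted wild-type and 20.2, 22.3 and 27.97 in fasted WT/Y657* mice, which overlapped, a difference of -0.36 (SE 0.08, adjusted p = 0.00316). Mrps2, the counterpart of a bacterial small-subunit protein, had 30.2, 31.8 and 35.1 and 23.05, 26.4 and 29.8 CPM without overlap and differed by -0.27 (SE 0.07, adjusted p = 0.0136). Without WT/Y657* mouse ONF_MT_806, Mrps2 was not called (-0.23, adjusted p = 0.053), nor with library size alone as the scaling (-0.22, adjusted p = 0.0531) or with the fit limited to the 2 groups (-0.24, adjusted p = 0.0501). Of the members fixed by role, Mrpl12 (0.04), Mrpl2 (-0.03), Mrpl10 (0.04) and Mrps12 (0.02) lay near 0, and Mrpl11 (0.20), Mrpl44 (-0.21) and Mrps5 (-0.21) had adjusted p-values of 0.0849, 0.0750 and 0.0722.

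The response to the fast differed between genotypes for 8 members, tested as an interaction. For 7 (9.59%) the change was more positive in WT/Y657* mice and for 1 (1.37%) more negative, beside 2.59% and 1.76% of all genes tested, with a median difference of 0.08. Mrpl53 differed by 0.59 (SE 0.15, adjusted p = 0.0208), with fasting changes of -0.22 (wild-type) and 0.37 (WT/Y657*), Mrps21 by 0.58 (SE 0.12, adjusted p = 0.00567) (-0.27 and 0.31), and Mrpl20 by 0.46 (SE 0.09, adjusted p = 0.00312) (-0.00090 and 0.46). Mrpl45 was the 1 with the opposite sign, at -0.43 (SE 0.12, adjusted p = 0.0281). The count fell to 3 with the number series as a covariate, where Mrpl53 (0.64, adjusted p = 0.121) and Mrpl45 (-0.41, adjusted p = 0.211) were not called, and to 2 without the mice at 0 for mt-Rnr2, where neither Mrpl53 (0.42, adjusted p = 0.114) nor Mrpl45 (-0.40, adjusted p = 0.116) was called. It was 4 without WT/Y657* fasted mouse ONF_MT_806, and 5 without any 1 of fasted mice ONF_MT_923 and ONF_WT_919 or fed mice ALC_WT_856, ALC_WT_848, ALC_MT_868 and ALC_MT_857.

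The response to refeeding differed for 5 members, with 1 (1.37%) more positive in WT/Y657* mice and 4 (5.48%) more negative, beside 0.595% and 1.46% of all genes tested, and a median of -0.07. Those with a smaller rise in WT/Y657* mice were Mrpl53 with -0.59 (SE 0.15, adjusted p = 0.0305), Mrpl33 with -0.49 (SE 0.13, adjusted p = 0.0338), Mrpl50 with -0.45 (SE 0.09, adjusted p = 0.00413) and Mrpl20 with -0.42 (SE 0.09, adjusted p = 0.0128), and Mrps2 rose more, by 0.41 (SE 0.10, adjusted p = 0.0294). Over the 9 comparisons of 2 groups, 7 members were called in none, namely Mrpl3, Mrpl23, Mrpl28, Mrpl40, Mrpl55, Mrps9 and Mrps36. The tests of the refeeding response use the same fasted mice as the comparison of fasted genotypes, which already differed in all 5. No member was called once trends with gene length and GC content were removed, with differences of -0.49 for Mrpl53 (adjusted p = 0.0704), -0.49 for Mrpl33 (0.0532), -0.31 for Mrpl50 (0.0767) and 0.40 for Mrps2 (0.0614). Nor was any called without the 5 mice at 0 for mt-Rnr2, where they were -0.51 for Mrpl53 (adjusted p = 0.128), -0.41 for Mrpl33 (0.157), -0.42 for Mrpl50 (0.0741) and 0.36 for Mrps2 (0.147). Leaving out WT/Y657* fasted mouse ONF_MT_806 or ONF_MT_923, wild-type fasted mouse ONF_WT_825, WT/Y657* refed mouse RF6_MT_898 or RF6_MT_814, or wild-type refed mouse RF6_WT_816, RF6_WT_828 or RF6_WT_901 left 2 or 3 calls. Over the 73 members the refeeding responses of the 2 genotypes had a Pearson correlation of 0.53 (Spearman 0.33), which was 0.26 over the 70 members other than Mrps22, Mrps25 and Mrps27, a description over genes that share libraries within each genotype.

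**Figure D4:**
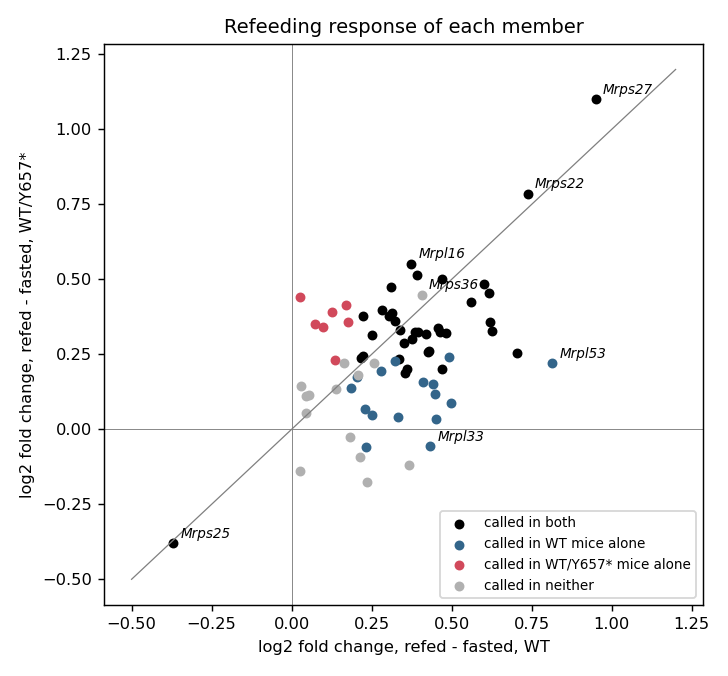
Log2 fold change on refeeding of each of the 73 members in wild-type (WT, x axis) and WT/Y657* mice (y axis), coloured by where it was called at an adjusted p under 0.05, with the line of equal response. Black points (36) were called in both genotypes, blue (16) in wild-type mice alone and red (7) in WT/Y657* mice alone, and 65 members lie above 0 on both axes.

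Genes for cytosolic ribosomal proteins and complex I subunits were taken along from the same fit, in which 6.43% of all genes tested were higher and 6.63% lower between fasted genotypes, 14.5% and 17.5% on fasting and 16.5% and 13.7% on refeeding in wild-type mice, and 15.2% and 17.7% on fasting and 17.1% and 14.2% on refeeding in WT/Y657* mice. Among 77 cytosolic ribosomal protein genes, 67 were higher and none lower in fasted WT/Y657* than wild-type mice, with a median of 0.41, and fasting lowered 47 and raised 0 of them in wild-type mice but raised 49 and lowered 3 in WT/Y657* mice. On refeeding, 72 rose in wild-type mice (median 0.36) and 6 in WT/Y657* mice (median -0.01), whereas 51 and 42 mitochondrial members rose. The mean centred log2 CPM of the cytosolic genes was 0.303 and 0.333 in fasted WT/Y657* mice ONF_MT_806 and ONF_MT_923. It ran from -0.0083 to 0.110 in the others of that group and from -0.381 to -0.140 in fasted wild-type mice. Of 37 nuclear genes for subunits of complex I, part of whose core is made on the mitochondrial ribosome, 19 were higher in fasted WT/Y657* mice, and on refeeding 12 rose in wild-type mice, and 4 rose and 7 fell in WT/Y657* mice. Neither list was tested against the members.

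The relation of these changes to exon length differed in sign between comparisons. Median exon length was 1664 bases for the 12 members higher in fasted WT/Y657* mice (11 of them with a length) and 2533 for those not called. Over the 72 members with a length the log2 difference between fasted genotypes had a Pearson correlation of -0.22 with log2 length, against -0.12 over 13779 genes tested, and the refeeding response of wild-type mice one of -0.24, against -0.15. The fasting response of wild-type mice had one of 0.24, against 0.0033. The refeeding response of WT/Y657* mice had one of -0.14, against -0.045, the same sign as in wild-type mice. By call, however, members that rose on refeeding in WT/Y657* mice had a median length of 2541.5 bases against 1761 for those not called. With per-library trends on length and GC content removed, 11 members were called between fasted genotypes and 43 in the refeeding response of wild-type mice. Both counts are given without the share of all genes called in that fit. The part of length in these differences was otherwise not tested. Of the 73 members, 15 share more than 10% of their exon bases with another gene. Of the other 58, refeeding raised 39 (wild-type) and 33 (WT/Y657*), lowered none in either, and 9 were higher and 2 lower in fasted WT/Y657* mice. Mrpl33, whose gene ID is not in GENCODE M21, could not be checked for overlap and is counted among the 58.

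**Figure D5:**
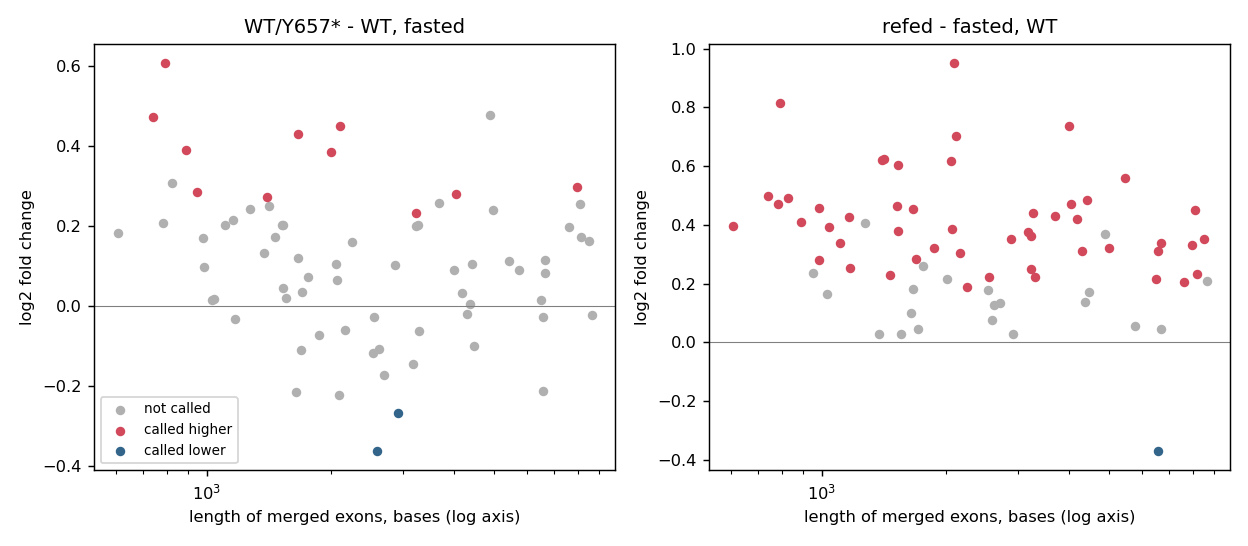
Log2 difference between fasted genotypes (left) and log2 change on refeeding in wild-type (WT) mice (right) against the length of merged exons (log axis) for the 72 members with a known length, coloured by call. Members called higher in fasted WT/Y657* mice have a median length of 1664 bases against 2533 for those not called.

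Promoters are shown for the members that moved most on refeeding in either direction (Mrps27, Mrps22 and Mrps25) and for the mitochondria-specific genes that differed most between fasted genotypes (Mrpl53 higher, Mrpl45 lower). The windows are RefSeq's, in build GRCm38.p6, from 250 bases before to 50 after each gene's start, and capitals mark matches on either strand to the motifs of ETS factors such as Gabpa (CCGGAAG), Nrf1 (GCGCANGCG), Yy1 (AAGATGGCG), Sp1 (GGGCGG), the E-box of Myc (CACGTG) and Foxo factors (TGTTTAC).

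Mrps27 (chr13:99344536-99344835, plus strand): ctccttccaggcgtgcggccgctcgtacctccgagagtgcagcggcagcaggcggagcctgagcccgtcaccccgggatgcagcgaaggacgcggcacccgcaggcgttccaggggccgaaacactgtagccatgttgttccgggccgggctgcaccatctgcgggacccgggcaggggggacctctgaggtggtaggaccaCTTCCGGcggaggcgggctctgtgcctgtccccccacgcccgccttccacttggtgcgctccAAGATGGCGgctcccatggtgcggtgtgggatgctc
Mrps22 (chr9:98601630-98601929, minus strand): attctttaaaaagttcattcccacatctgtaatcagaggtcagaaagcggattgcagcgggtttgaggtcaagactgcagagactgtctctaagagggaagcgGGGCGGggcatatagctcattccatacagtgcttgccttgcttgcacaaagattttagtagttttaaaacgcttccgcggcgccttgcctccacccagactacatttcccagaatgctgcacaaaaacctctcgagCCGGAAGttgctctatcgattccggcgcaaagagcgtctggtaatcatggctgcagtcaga
Mrps25 (chr6:92183974-92184273, minus strand): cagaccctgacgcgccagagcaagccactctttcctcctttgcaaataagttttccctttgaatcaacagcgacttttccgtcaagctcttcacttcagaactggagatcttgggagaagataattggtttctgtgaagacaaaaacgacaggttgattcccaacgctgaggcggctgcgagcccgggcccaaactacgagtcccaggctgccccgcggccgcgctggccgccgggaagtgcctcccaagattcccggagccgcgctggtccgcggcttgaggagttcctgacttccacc
Mrpl53 (chr6:83108858-83109157, plus strand): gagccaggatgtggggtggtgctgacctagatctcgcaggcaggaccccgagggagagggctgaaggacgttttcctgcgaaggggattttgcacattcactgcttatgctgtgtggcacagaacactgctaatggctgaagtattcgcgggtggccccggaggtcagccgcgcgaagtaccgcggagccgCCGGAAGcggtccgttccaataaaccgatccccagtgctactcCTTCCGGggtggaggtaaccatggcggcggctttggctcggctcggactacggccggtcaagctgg
Mrpl45 (chr11:97315466-97315765, plus strand): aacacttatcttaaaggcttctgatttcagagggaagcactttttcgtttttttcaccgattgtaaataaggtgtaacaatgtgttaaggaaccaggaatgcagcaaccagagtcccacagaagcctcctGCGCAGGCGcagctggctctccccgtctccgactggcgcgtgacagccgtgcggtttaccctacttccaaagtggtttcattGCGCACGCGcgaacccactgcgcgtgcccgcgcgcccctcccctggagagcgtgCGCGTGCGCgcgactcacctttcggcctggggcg

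The Mrps27 window holds 1 ETS match and 1 Yy1 match, that of Mrps22 holds 1 ETS and 1 Sp1 match, that of Mrpl53 holds 2 ETS matches and that of Mrpl45 holds 3 Nrf1 matches. No match to any of the 6 motifs was found in the Mrps25 window. Windows were found for 64 of the 73 members. The ETS motif was in 19 of these (29.7%) and in 9.14% of 27025 windows of all genes, coding or not, the Nrf1 motif in 14 (21.9%) and 6.49%, the Yy1 motif in 7 (10.9%) and 1.48%, and the Sp1 motif in 31 (48.4%) and 35.9%. The E-box was in 4 (6.25%) against 7.24%, and the Foxo motif in 2 (3.12%) against 3.52%. Among the 30 members with a window that rose on refeeding in both genotypes, 9 held the ETS motif, 2 the Nrf1 motif, 5 the Yy1 motif and none the Foxo motif, and among the other 34, 10, 12, 2 and 2 did. These counts are matches of letters and were not tested.

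Other genes of the mitochondrial translation system were taken from fixed lists, whose counts stand beside the shares of all genes tested already given, 16.5% higher and 13.7% lower on refeeding and 14.5% higher and 17.5% lower on fasting in wild-type mice, 17.1% and 14.2% on refeeding and 15.2% and 17.7% on fasting in WT/Y657* mice, and 6.43% and 6.63% between fasted genotypes. No list was tested as a set, and in lists this short a few genes decide the count. Of 9 further proteins of the ribosome whose symbols fall outside the pattern, 7 rose and none fell on refeeding in wild-type mice and 6 rose and none fell in WT/Y657* mice. Chchd1, of the small subunit, was the 1 of these 9 called in fasted mice between genotypes, with 12.4, 13.9 and 17.4 CPM (lowest, median, highest) in wild-type and 19.4, 21.8 and 24.1 in WT/Y657* mice, a difference of 0.61 (SE 0.09, adjusted p = 1.65e-05). Mrp63, an older symbol of Mrpl57 that is not on this list, was also called (0.40, adjusted p = 0.00398). Gadd45gip1, of the large subunit, fell on fasting in both genotypes, by 0.49 (adjusted p = 9.85e-06) and 0.54 (adjusted p = 1.72e-06), and rose on refeeding by 0.64 (adjusted p = 1.17e-07) and 0.69 (adjusted p = 2.64e-08). Fasting in wild-type mice also lowered Mrps18b, of the small subunit, by 0.39 (adjusted p = 2.08e-04), and Chchd1 by 0.30 (adjusted p = 0.00677). Among 14 translation factors 9 rose and none fell on refeeding in wild-type mice and 6 and none in WT/Y657* mice, and 5 fell on fasting in wild-type mice, among them Tufm (the elongation factor that delivers aminoacyl-tRNA) by 0.39 (adjusted p = 1.99e-04), Tsfm (its exchange factor) by 0.43 (adjusted p = 0.00199) and Gfm2 (a recycling factor) by 0.25 (adjusted p = 0.0137). Guf1 was the 1 factor called between fasted genotypes, at 0.27 (adjusted p = 0.0443). Of 25 factors that assemble the ribosome or modify its RNA, 8 rose and 1 fell on refeeding in wild-type and 10 rose and none fell in WT/Y657* mice, and fasting raised 6 and lowered 1 in wild-type mice, with the smallest p for Wbscr16 (0.37), Mtg1 (0.42) and Mterfd2 (0.35). None of the 25 was called between fasted genotypes. Of 10 genes for the transcription and RNA stability of mitochondria or, in the case of Peo1, Polg, Polg2 and Ssbp1, the replication of their DNA, 1 was higher and none lower between fasted genotypes, where Slirp, which stabilises mitochondrial messages, differed by 0.55 (adjusted p = 7.72e-05), and fasting in wild-type mice raised Tfam, which packages mitochondrial DNA, by 0.40 (adjusted p = 1.29e-06), and lowered Lrpprc by 0.32 (adjusted p = 0.00403) and Slirp by 0.31 (adjusted p = 0.00683). Of 14 genes encoded in mitochondrial DNA, 10 rose on fasting in WT/Y657* and none in wild-type mice, none rose and 3 fell on refeeding in WT/Y657* mice, and mt-Co3 was the 1 called between fasted genotypes (0.35, adjusted p = 0.0106). This list holds mt-Rnr2 itself, and its counts without the mice at 0 for mt-Rnr2, some of them fasted and refed WT/Y657* mice, are not given. Of 10 nuclear regulators of mitochondrial genes none was called between fasted genotypes, and Ppargc1a, a coactivator of oxidative genes, rose on fasting by 0.67 (adjusted p = 0.00491) in wild-type mice and fell on refeeding by 0.81 (adjusted p = 9.66e-04) while the members rose.

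Some markers of the cell types of liver were called too. Of all genes tested, 16.5% were higher and 13.7% lower on refeeding in wild-type mice, and 6.43% and 6.63% between fasted genotypes. On refeeding of wild-type mice 5 of 10 hepatocyte, 3 of 6 endothelial and 3 of 6 stellate cell markers were lower, 1 stellate cell marker was higher, 1 of 5 erythroid markers was lower, and none of 7 Kupffer cell, 5 cholangiocyte, 4 lymphocyte or 3 neutrophil markers was called. The summed hepatocyte markers ran from 77598 to 111050 CPM in fasted and from 65563 to 89637 in refed wild-type mice. Between fasted genotypes 1 of 10 hepatocyte markers was lower, and 1 endothelial, 1 stellate cell and 1 neutrophil marker were higher. Those counts are too small to be a result about a cell type. Of the acinar markers of pancreas, Prss1, Cpa1, Pnlip and Amy2a5 had a median under 0.1 CPM, and 1 acinar marker passed the filter and was not called in refeeding or between fasted genotypes. The part of cell composition in the members' changes was not tested.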

How the data were processed

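Total RNA of snap-frozen liver was made into stranded libraries and sequenced as 50 bp single reads. Per the labels, reads were aligned with Cuffdiff and counted per gene with featureCounts, and versions and the use of strand in counting are not given in the sources used here. The count columns carry the suffix cxb-raw-count, and which of the named programs wrote them was not checked. The labels name build mm9, but 16061 of 36341 loci matched by ID equal GENCODE M21 coordinates, so GRCm38 coordinates are given. The deposited table holds estimated counts (3.64% of nonzero values not whole), which were rounded. A second deposited table of fitted means was not used. Counts of all 36 mice (6 a group, 8839488 to 19542775 each) were scaled by TMM in edgeR 4.0.16 (R 4.3.3), filtered with filterByExpr to 13945 genes and fitted with 1 coefficient per group by the robust quasi-likelihood method. The threshold was a Benjamini-Hochberg adjusted p under 0.05 over all genes tested, and all tests were two-sided. Log2 CPM for the scores used a prior count of 2. The pipeline was tested on simulated data. Standard errors of log2 fold changes were taken as the size of the fold change over the root of its F statistic.

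The members and lists were chosen with earlier results of these data known. Named members were the 3 called ones with the largest positive and the 3 with the largest negative change per comparison, 12 members fixed by role, and the 3 highest and 3 lowest per length, and of other lists the called genes with the 3 smallest p between fasted genotypes and on fasting in wild-type mice. Nr2c2, Mapk8ip3, Nme3, Mrp63, Gadd45gip1 on refeeding and Ppargc1a on refeeding were named after their values were seen, as were the members called between fasted genotypes beyond the largest 3 in each direction. Alternatives were DESeq2 1.42.0 (size factors or test), library size alone, other filters, the likelihood ratio test, limma-voom 3.58.1, a fit to the compared groups alone, number series as a covariate, removal of length and GC trends (mgcv 1.9.3) and leaving out each mouse. The comparison of refed with fed mice and the fits without mt-Rnr2, or without the mice that had it at 0, were added after the data were seen.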

Additional observations from a re-analysis of the deposited data

Results flagged for a closer look

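In 15 of 216 groups of 6 mice, 1 mouse stood apart from the other 5 by Dixon's criterion, which chance alone would give in about 1 group of 20. For the member score this was fed wild-type mouse ALC_WT_847 at -0.166. Among single members, the mice that stood apart were fasted wild-type mice ONF_WT_920 (Mrpl10, 27.8 CPM), ONF_WT_807 (Mrpl20, 26.8 CPM) and ONF_WT_918 (Mrpl33, 15.2 CPM), fasted WT/Y657* mouse ONF_MT_826 (Mrpl12, 56.0 CPM, and Mrps6, 9.10 CPM), and refed WT/Y657* mice RF6_MT_898 (Mrpl21, 16.2 CPM, and Mrps34, 37.7 CPM) and RF6_MT_899 (Mrpl50, 59.9 CPM). The others were refed wild-type mouse RF6_WT_816 (Mrpl34, 34.6 CPM), fed wild-type mouse ALC_WT_847 (Mrpl9, 30.9 CPM), and fed WT/Y657* mice ALC_MT_858 (Mrpl3, 14.1 CPM), ALC_MT_857 (Mrps15, 12.9 CPM), ALC_MT_869 (Mrps21, 26.3 CPM) and ALC_MT_866 (Mrps22, 18.4 CPM).

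The response to fasting differed between genotypes, by the interaction term of edgeR's quasi-likelihood test, for Mrpl53 (log2 difference 0.59), Mrps21 (0.58), Mrpl20 (0.46), Mrpl33 (0.45), Mrps14 (0.41), Mrpl50 (0.38), Mrpl51 (0.32) and Mrpl45 (-0.43). The response to refeeding differed for Mrpl53 (-0.59), Mrpl33 (-0.49), Mrpl50 (-0.45), Mrpl20 (-0.42) and Mrps2 (0.41).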

How the results depend on the processing

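No paired analysis was possible because no mouse number is shared between groups. No called value changed sign under any alternative, and the median between fed genotypes, with no call, was -0.03 with length and GC trends removed. Scaling by library size alone, which moved the median of all genes by up to 0.11 on the log2 scale, gave median member changes of 0.12 and 1 call between fed genotypes, 0.096 between refed genotypes, 0.41 and 0.34 on refeeding in wild-type and WT/Y657* mice and 0.37 for refed against fed wild-type mice, and 5 and 3 members whose response to fasting and to refeeding differed between genotypes. With length and GC trends removed the medians on refeeding and for refed against fed mice were 0.27 and 0.17 in wild-type mice, and 0 members differed in the refeeding response. Without a filter 5 and 3 members differed in the fasting and refeeding responses, and with at least 10 counts in every library 22 were called between fasted genotypes. With number series as a covariate 3 differed in the fasting response, and it was not run for fasting, or for refed against fed mice, within a genotype, where it coincides with feeding state. Without the 5 mice at 0 for mt-Rnr2, 10 members were called on fasting in WT/Y657* mice, 2 differed in the fasting and 0 in the refeeding response. These causes were not tested. Counts of members under the alternatives are given throughout without the share of all genes called.

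Leaving out each mouse in turn gave 4 to 8 members that differed in the fasting and 2 to 7 in the refeeding response, 12 to 16 called between fasted genotypes, 12 to 17 and 13 to 19 on fasting, 44 to 52 and 38 to 44 on refeeding in wild-type and WT/Y657* mice, and 0 between fed or refed genotypes. Of the values of the named members, 62 lost and 7 gained a call under some alternative, 11 uncalled values near 0 changed sign, and 1554 stayed. With a median standard error of 0.084 on the log2 scale, 17 members that differed by more than 0.2 between fasted genotypes were not called.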

Other observations

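Mrp63, an older symbol of Mrpl57 that the naming pattern leaves out, had 11.6, 13.99 and 15.8 CPM (lowest, median, highest) in fasted wild-type and 13.6, 18.5 and 20.9 in fasted WT/Y657* mice. It fell by 0.32 on fasting (adjusted p = 0.00820, edgeR's quasi-likelihood test) and rose by 0.53 on refeeding (adjusted p = 3.64e-05) in wild-type mice, and rose by 0.32 on refeeding in WT/Y657* mice (adjusted p = 0.00726). Ict1, now Mrpl58, a release factor built into the large subunit, was not called between fasted genotypes (0.07, adjusted p = 0.694) and rose on refeeding by 0.39 (adjusted p = 0.00102) and 0.38 (adjusted p = 0.00119).

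Where above 0, mt-Rnr2 ran from 36050 to 79010 CPM. All counts of mitochondrial genes, mt-Rnr2 among them, made up between 4.68% and 12.8% of a mouse's total. In the mice with mt-Rnr2 at 0 that share lacks its part.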
